A study of Mus musculus with 13 samples.

Results

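The mesothelium is the flat cell layer that lines the peritoneal cavity and covers the organs in it, and 10 genes that mark it were followed across 13 arrays. The genes were Msln, Muc16, Upk3b, Upk1b, Wt1, Bnc1, Gpm6a, Lrrn4, Krt19 and Krt8, which are 10 of the 18193 genes with a probe set on the array. They were chosen by symbol. All 17 probe sets that carry these symbols were read, and the brightest of a gene's probe sets, by its mean over the 13 arrays, stood for that gene. All 10 genes passed the filter on low values, which kept 15370 genes.

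RNA was taken from cells sorted on CD31, an endothelial surface protein, from tumors of the human ovarian cancer line SKOV3ip1 in mice, which the methods give as female athymic nude NCr-nu animals, a strain that lacks mature T cells. The labels call each array a biological replicate. Neither labels nor methods give the ages of these animals or say which array came from which animal, so p-values cover the spread between these samples and no more. The control group had 5 arrays, and the sensitive and resistant groups had 4 each, from mice given B20, an antibody against VEGF-A. The labels call the first group only control. In the methods, mice without B20 received a control IgG antibody, whereas the introduction names cells collected before treatment. Which of these the control arrays came from is not stated. Mice were called sensitive or resistant by their tumor signal under B20, so those groups differ in outcome and in time on treatment rather than in the agent. Every tumor came from the same cell line. Values are log2 intensities after quantile normalization, and a floor of 2.01 was the lowest value possible.

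Mesothelial cells secrete lubricating proteins, carry keratins like an epithelium, and keep the transcription factor Wt1 from the embryonic cavity lining. Ovarian cancer cells that spread in the peritoneal cavity meet this layer. Mesothelin and mucin 16 bind each other at the cell surface. Keratins 8 and 19 are also made by other epithelia and by carcinoma cells, so they do not mark the lining alone. How strictly the other genes mark it in these samples was not tested.

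The endothelial label was checked against endothelial genes. Pecam1, the gene of CD31, reached 6.56 on control arrays 4 and 5 but no more than 3.41 on the remaining 11. The same pair of controls had endothelial medians (12 genes) of 6.93 and 7.07, with 2.54 to 4.07 elsewhere. Some endothelial genes were well above the floor in the other groups too: the mean of Kdr, a VEGF receptor, was 6.28 on control, 5.16 on sensitive and 6.03 on resistant arrays, and that of Plvap was 6.03, 4.19 and 5.92. These control means include arrays 4 and 5. Esam had sensitive and resistant means of 4.80 and 5.53, and those of Erg, Cldn5 and Egfl7 lay between 3.44 and 4.08. For Pecam1, Cdh5, Tek, Tie1, Emcn and Vwf the sensitive means were only 2.29 to 2.74 and the resistant means 2.32 to 3.61. Correlations between replicates ran from 0.930 to 0.987 for controls, from 0.776 to 0.944 for sensitive arrays and from 0.933 to 0.968 for resistant arrays, and 0 arrays were identical. Sensitive array 4 had the largest difference between 3 prime and 5 prime control probe sets, 5.95 against 2.23 to 3.82 on the other arrays, which is a sign of degraded RNA.

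Promoter sequences from RefSeq (GRCm38.p6) were given for 6 of the 10 genes, Upk3b, Bnc1, Gpm6a, Lrrn4, Muc16 and Krt8, with 7 promoters in all because Gpm6a has a pair of starts. The 150 bases before the start are shown for 3 of these genes, which were highest on the same arrays and whose windows are unlike each other in base composition. Upk3b lies at chr5:136038346-136038495 on the plus strand, Bnc1 at chr7:81992300-81992449 on the minus strand and the upstream start of Gpm6a at chr8:54779284-54779433 on the plus strand. Each is written 5′ to 3′ toward the gene. Capitals mark the matched motif, GATAAG in Upk3b, the reverse complement of GTGGGNG in Bnc1 and GGAATG in Gpm6a.
Upk3b: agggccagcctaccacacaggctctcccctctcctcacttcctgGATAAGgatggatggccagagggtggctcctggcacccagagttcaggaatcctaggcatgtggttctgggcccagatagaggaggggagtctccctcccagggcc
Bnc1: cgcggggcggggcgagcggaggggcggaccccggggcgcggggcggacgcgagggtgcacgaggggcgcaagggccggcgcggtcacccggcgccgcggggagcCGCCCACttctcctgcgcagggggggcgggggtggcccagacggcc
Gpm6a: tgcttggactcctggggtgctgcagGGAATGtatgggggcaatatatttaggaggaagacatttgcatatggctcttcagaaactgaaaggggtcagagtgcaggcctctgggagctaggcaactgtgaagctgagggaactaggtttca

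The share of G and C in these windows was 85.3% for Bnc1, 62.0% for Upk3b and 50.7% for Gpm6a. Motifs were searched on both strands from 250 bases before to 50 after each start. GTGGGNG, the core shared by WT1 and EGR sites, was in 2 of the 6 genes (Bnc1 and Lrrn4) and in 31.6% of all 32851 promoters. GGAATG, the TEAD motif, was in 3 (Upk3b, Gpm6a and Lrrn4), against 14.7% of all promoters. GATAAG, the GATA motif, was in Upk3b and Krt8, against 7.44%, and the TATA box letters TATAAA were in Gpm6a and Krt8, against 13.6%. The forward and reverse TATAAA matches of Krt8 overlap each other at the start site. No motif searched was found in all 6 genes, and a match is a description of the letters, not of binding.

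Msln encodes mesothelin, a surface protein anchored by a lipid (probe set 1460238_at). Its log2 intensity on control arrays 1 to 5 was 4.42, 5.95, 6.33, 3.51 and 4.45. On sensitive arrays 1 to 4 it was 8.99, 8.30, 3.50 and 3.33, and on resistant arrays 1 to 4 it was 3.42, 7.47, 7.31 and 6.23. Sensitive arrays 1 and 2 and resistant arrays 2 and 3 were above every control array. Sensitive array 4 and resistant array 1 were below the lowest control array, and sensitive array 3 was level with it. The sensitive group thus enclosed both other groups.

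Muc16 encodes mucin 16, the CA125 antigen and the binding partner of mesothelin (1432358_at). It was at the floor of 2.01 on control arrays 1, 2, 4 and 5 and at 2.07 on control array 3. On the sensitive arrays it was 3.17, 2.99, 2.01 and 2.01 in order of replicate number, and on the resistant arrays 2.01, 2.53, 2.47 and 2.32. This gene was dim throughout, and its highest array exceeded the floor by 2.23-fold. Its arrays above the controls were still sensitive 1 and 2 and resistant 2, 3 and 4.

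Upk3b and Upk1b encode uroplakins, membrane proteins first known from the bladder lining, and Upk3b is widely used as a marker of mesothelium. Upk3b (1454881_s_at) was 5.38, 4.65, 5.01, 3.32 and 4.51 on the control arrays. It was 9.08, 9.01, 2.37 and 2.56 on the sensitive arrays and 3.87, 8.17, 7.71 and 6.60 on the resistant arrays. The sensitive group therefore held the highest and the lowest arrays of the study, which were 104-fold apart. Upk1b (1439760_x_at) was 4.96, 5.61, 7.08, 4.64 and 4.78 on the control arrays. On the sensitive arrays it was 8.84, 10.19, 4.72 and 4.54, and on the resistant arrays 4.44, 8.39, 7.10 and 7.25. By this probe set resistant arrays 3 and 4 lay close to control array 3, whereas sensitive arrays 1 and 2 lay above all other groups' arrays. By its other probe sets control array 3 was at 4.99, 5.12 and 5.55 and resistant array 3 at 6.61, 6.26 and 6.27.

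Wt1 and Bnc1 encode zinc finger transcription factors, and Wt1 is needed for the mesothelium to form. Wt1 (1425995_s_at) was 4.15, 4.93, 4.91, 3.05 and 3.48 on the control arrays. It was 7.78, 7.23, 3.14 and 3.40 on the sensitive arrays and 3.13, 7.0, 5.57 and 5.04 on the resistant arrays. Resistant array 4 was barely above the highest control array, and resistant array 1 was near the lowest. Bnc1 (1424890_at), a regulator of epithelial growth, was 2.09, 2.39, 2.16, 2.01 and 2.17 on the control arrays. On the sensitive arrays it was 6.27, 6.86, 2.01 and 2.17, and on the resistant arrays 2.01, 5.59, 4.15 and 2.18. Bnc1 was thus close to the floor on 9 of the 13 arrays and well above it on 4, with no array in between.

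Gpm6a encodes a membrane glycoprotein of neurons that the lining also makes, and Lrrn4 a leucine-rich repeat membrane protein. Gpm6a (1456741_s_at) was 2.83, 2.34, 2.01, 2.10 and 2.65 on the control arrays. It was 5.48, 7.29, 2.60 and 2.60 on the sensitive arrays and 2.46, 6.36, 5.41 and 3.65 on the resistant arrays. Lrrn4 (1435648_at) was 2.95, 2.18, 2.35, 2.58 and 2.64 on the control arrays, 6.61, 7.46, 2.43 and 2.21 on the sensitive arrays and 2.46, 6.74, 5.27 and 3.02 on the resistant arrays. For both genes sensitive array 2 was highest, resistant array 2 came next, above sensitive array 1, and resistant array 4 was the first array below the leading 4.

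Krt19 and Krt8 encode keratins, intermediate filament proteins of epithelia. Krt19 (1417156_at) was 3.44, 4.93, 5.48, 2.51 and 3.33 on the control arrays. It was 6.44, 5.93, 2.60 and 2.51 on the sensitive arrays and 3.11, 5.33, 5.04 and 3.86 on the resistant arrays. Control array 3 lay above both leading resistant arrays here, which was not so for the transcription factors. Krt8 (1423691_x_at) was 5.81, 6.48, 7.87, 4.33 and 5.66 on the control arrays. On the sensitive arrays it was 9.72, 8.90, 4.88 and 2.29, and on the resistant arrays 3.94, 7.52, 7.86 and 6.99. Its range over the study, 172-fold, was the widest of the 10 genes by the probe sets used, with both ends in the sensitive group. The low end was sensitive array 4, which showed a sign of degraded RNA. Other probe sets of Krt8 were at 2.52 and 3.15 on that array.

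**Figure D1:**
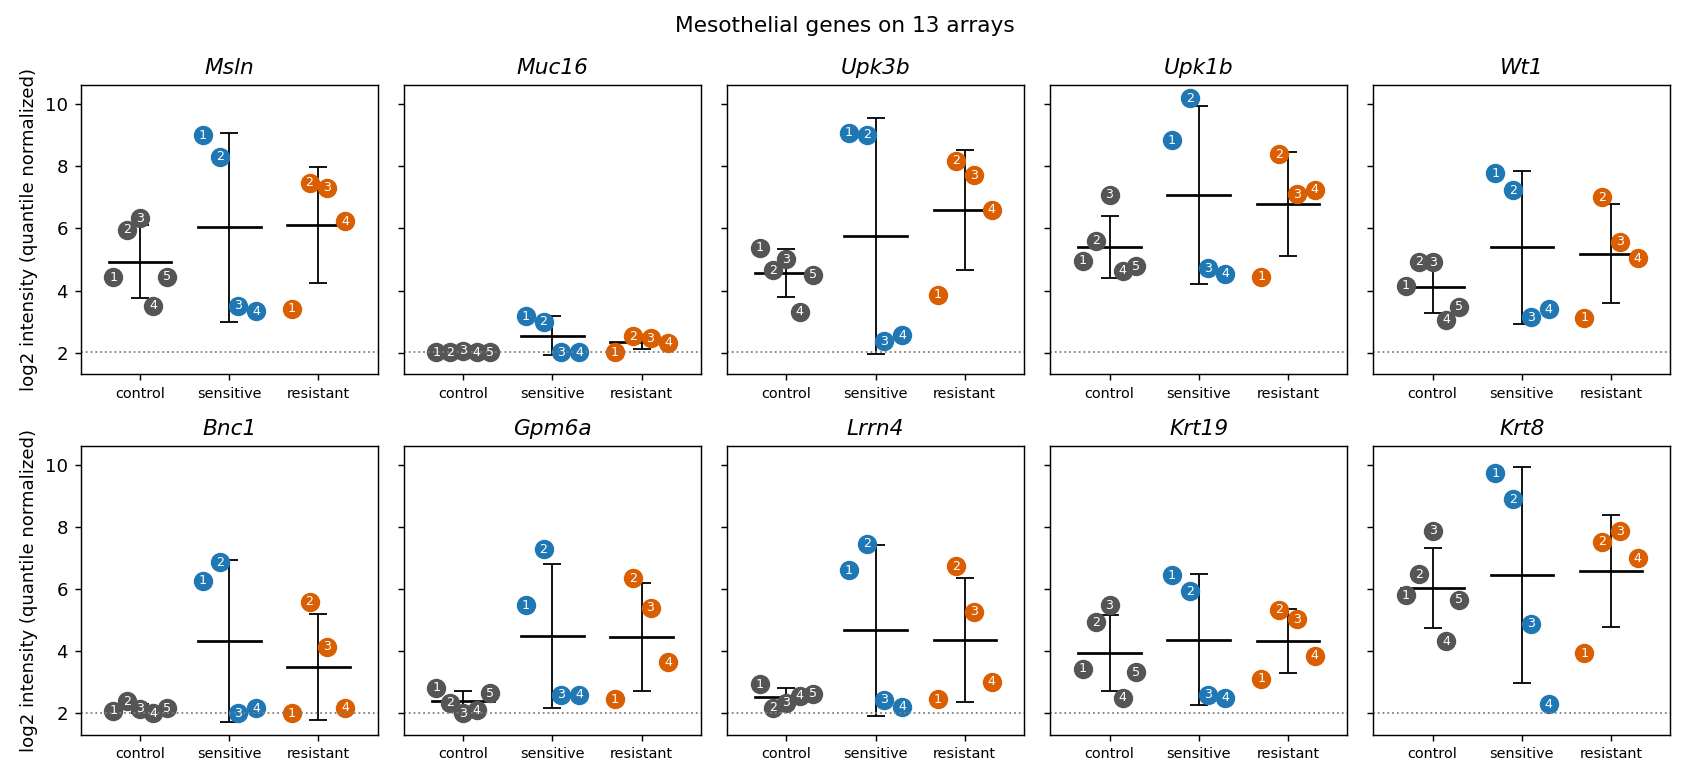
Log2 intensity after quantile normalization (y axis, log2 scale) of the 10 genes in the control, sensitive and resistant groups (x axis). Points are arrays with their replicate number, horizontal lines are group means, error bars are the SD (n = 5, 4 and 4) and the dotted line is the floor of 2.01. Sensitive arrays 1 and 2 lie above all controls in each panel, while sensitive arrays 3 and 4 lie with or below the controls.

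The genes varied together between single arrays. Sensitive array 1 was the highest of the 13 arrays for 6 of the 10 genes and sensitive array 2 for the other 4, whereas 39.7% of all genes tested had their highest value on either array. For 7 of the 10 genes the 4 highest arrays were sensitive 1 and 2 and resistant 2 and 3, which held for 198 of all 15370 genes tested, or 1.29%. These 4 arrays were picked out after the values of the genes were seen, so the shares are descriptions. By the probe sets used, the exceptions were Upk1b, Krt19 and Krt8, for which resistant array 4 or control array 3 came among the 4 highest. The other probe sets of Upk1b were highest on sensitive 1 and 2 and resistant 2 and 3. All 10 genes were above every control array on both sensitive arrays 1 and 2, and 8 of 10 were so on both resistant arrays 2 and 3. The 45 pairs of genes had Pearson correlations over the 13 arrays from 0.69 to 0.98 with a median of 0.89, all over the same arrays.

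Within the groups the order was as regular. Resistant array 1 was the lowest of its group for 10 of 10 genes and resistant array 2 the highest for 9. Sensitive array 4 was lowest of its group for 6 genes and sensitive array 3 for 3, with Muc16 at the floor on both. Among the controls, array 4 was lowest for 7 genes and array 3 was highest for 5, including Msln, Upk1b, Krt19 and Krt8. The median of the 10 genes on control arrays 1 to 5 was 3.80, 4.79, 4.96, 2.82 and 3.41. It was 7.19, 7.37, 2.60 and 2.53 on the sensitive arrays and 3.12, 6.87, 5.49 and 4.45 on the resistant arrays. Between 8 and 10 of the genes were above the floor on each array.

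A set of 4 genes, Muc16, Bnc1, Gpm6a and Lrrn4, stayed within 1 log2 unit of the floor on every control array, as did 18.6% of all genes tested. The other 6 lay further above it on some controls and spanned 3.67-fold (Wt1) to 11.7-fold (Krt8) among those 5 arrays. The SD in the sensitive group exceeded that in the control group for 10 of 10 genes, against 84.2% of all genes tested, and the SD in the resistant group did so for 9, against 55.4%. The median SD of the 10 genes was 0.81 in the control group, 2.67 in the sensitive group and 1.73 in the resistant group, and over all genes tested it was 0.32, 0.67 and 0.36.

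Resistant and sensitive tumors were compared to ask which genes go with the loss of response to B20. None of the 10 mesothelial genes passed the test, and both groups held arrays with high and arrays with low levels of them. By limma 0 of the 10 were called at an adjusted p under 0.05, and the lowest adjusted p was 0.824. Over all genes tested 0% were called, the lowest adjusted p was 0.0609, and 1087 genes had an unadjusted p under 0.05. At that unadjusted threshold 0 of the 10 were higher on the resistant arrays, against 4.54% of all genes. The median log2 fold change of the 10 genes was −0.12, with 3 of 10 positive, and that of all genes −0.07, with 42.1% positive. This direction turned with the scaling: 8 of 10 were positive, with medians of 0.26 and 0.34, when the deposited values were left without quantile normalization and when arrays were centred on their medians.

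Upk3b had a mean log2 intensity of 6.59 ± 1.93 (SD, n = 4) on the resistant and 5.75 ± 3.80 (SD, n = 4) on the sensitive arrays, a log2 fold change of 0.84 (SE 1.44). The 95% confidence interval of that difference ran from −2.26 to 3.93. Bnc1 had the largest difference the other way, −0.84 (SE 1.03), with an interval from −3.05 to 1.36. Msln differed by 0.07 (SE 1.27, interval −2.65 to 2.79), Wt1 by −0.20 (SE 1.04, interval −2.42 to 2.02) and Gpm6a by −0.02 (SE 0.98, interval −2.11 to 2.07). Intervals this wide hold changes of 4-fold or more in each direction for these 5 genes, apart from the upward side of Bnc1. For all 10 genes the groups overlapped, and groups that did not overlap made up 1.87% of all genes tested. The sign of the median rested on single arrays: it was 0.47 without sensitive array 1, 0.69 without sensitive array 2, 0.50 without resistant array 1 and 0.01 without resistant array 4. Without both sensitive arrays 1 and 2 it was 1.98, with 10 of 10 genes positive, against 58.1% of all genes. These arrays were picked because the 10 genes were high on them, so that rise follows from the choice.

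Between sensitive and control tumors, which asked what accompanied B20 while tumors still responded, all 10 genes had higher means in the sensitive group and none passed the test. The median log2 fold change was 1.23, against 0.09 over all genes tested, of which 58.4% were positive. With the deposited values left without quantile normalization, or with arrays centred on their medians, the median was 0.79 and 0.68, 9 of 10 were positive and Krt8 was at −0.026 and −0.14. Called genes numbered 0 of the 10 and 0% of all genes by limma, with lowest adjusted p values of 0.380 and 0.0929, and 1828 genes had an unadjusted p under 0.05. At that unadjusted threshold 3 of the 10 were higher, against 5.31% of all genes. The 3 became 0 without sensitive array 1, without sensitive array 2, without the intensity trend and with the methods' t-test, and 5 without sensitive array 3 or sensitive array 4. It was 1 without control array 2, 3, 4 or 5, with array weights, with no filter and under both other scalings. With a floor at an intensity of 100 it was 3 of the 4 genes then tested (Msln, Upk3b, Upk1b and Krt8). The lowest limma adjusted p was then 0.218.

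The 3 genes past the unadjusted threshold with the usual floor were among the 4 that sat near that floor on the controls. Bnc1 was 4.33 ± 2.59 (SD, n = 4) on the sensitive and 2.17 ± 0.14 (SD, n = 5) on the control arrays, a log2 fold change of 2.16 (SE 0.98, limma unadjusted p = 0.044, adjusted p = 0.411). Gpm6a was 4.49 ± 2.31 against 2.39 ± 0.35, a log2 fold change of 2.10 (SE 0.93, limma unadjusted p = 0.0394, adjusted p = 0.400). Muc16 was 2.55 ± 0.62 against 2.03 ± 0.02, a log2 fold change of 0.52 (SE 0.22, limma unadjusted p = 0.0316, adjusted p = 0.380), and its control values were at the floor on 4 of 5 arrays. This clipped spread enters its SE and p. Muc16 was above the floor on 1 control, 2 sensitive and 3 resistant arrays. It thus passed the filter on low values mainly through the groups where it was high, and so entered the count of 3. Lrrn4 had a similar difference, 2.14 (SE 1.08), with an interval from −0.17 to 4.44. Upk1b differed by 1.66 (SE 1.11), Wt1 by 1.28 (SE 0.98), Upk3b by 1.18 (SE 1.37), Msln by 1.10 (SE 1.20), Krt19 by 0.43 (SE 0.88) and Krt8 by 0.42 (SE 1.32), each with an interval that held 0. In no gene were the groups apart, as they were for 3.03% of all genes tested, since sensitive arrays 3 and 4 lay among or below the controls. Without sensitive arrays 1 and 2 the median was −0.81, with 1 of 10 positive, against 43.5% of all genes. Those arrays were picked for their high values of these genes, so the fall follows from the choice.

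Resistant tumors were set against control tumors, the same 5 control arrays as above, to ask what the resistant state looks like beside tumors labelled control. Again all 10 genes had higher means in the resistant group and none passed the test, with a median log2 fold change of 1.25, against 0.03 over all genes tested and 54.3% positive. Under both other scalings 10 of 10 were positive. The median was 0.67 without resistant array 2 and 1.94 without resistant array 1, the ends of its range with single arrays left out. Limma called 0 of the 10 and 0% of all genes, with an adjusted p of 0.9999 for each of the 10, and 386 genes had an unadjusted p under 0.05. The spread in this fit was shared by all 3 groups, so the sensitive arrays, which varied most, entered these p-values. Higher at that unadjusted threshold was 1 of the 10, against 0.982% of all genes. That count was 4 with the compared groups alone and 9 with array weights, which let arrays count unequally, and the lowest adjusted p of the 10 was then 0.592 and 0.0807. The count was 2 with the methods' t-test and without resistant array 1. It fell to 0 without control array 2, 3, 4 or 5 and without resistant array 2 or 3. With no filter, no intensity trend, the mean of all probe sets or a floor at an intensity of 100 it was also 0. The gene past the unadjusted threshold in the fit of all 3 groups was Gpm6a, at 4.47 ± 1.75 (SD, n = 4) against 2.39 ± 0.35 (SD, n = 5), a log2 fold change of 2.08 (SE 0.93, interval 0.10 to 4.06). Upk3b differed by 2.02 (SE 1.37, interval −0.92 to 4.95), Lrrn4 by 1.83 (SE 1.08) and Upk1b by 1.38 (SE 1.11). The remaining differences were 1.32 (SE 0.98) for Bnc1, 1.17 (SE 1.20) for Msln, 1.08 (SE 0.98) for Wt1, 0.55 (SE 1.32) for Krt8, 0.40 (SE 0.88) for Krt19 and 0.31 (SE 0.22) for Muc16. All 10 genes overlapped between the groups, since resistant array 1 lay within or below the controls, and groups apart made up 2.71% of all genes. Without resistant arrays 2 and 3 the median was 0.06, with 5 of 10 positive, against 54.9% of all genes. They too were picked for high values of these genes, so a fall follows from the choice.

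**Figure D2:**
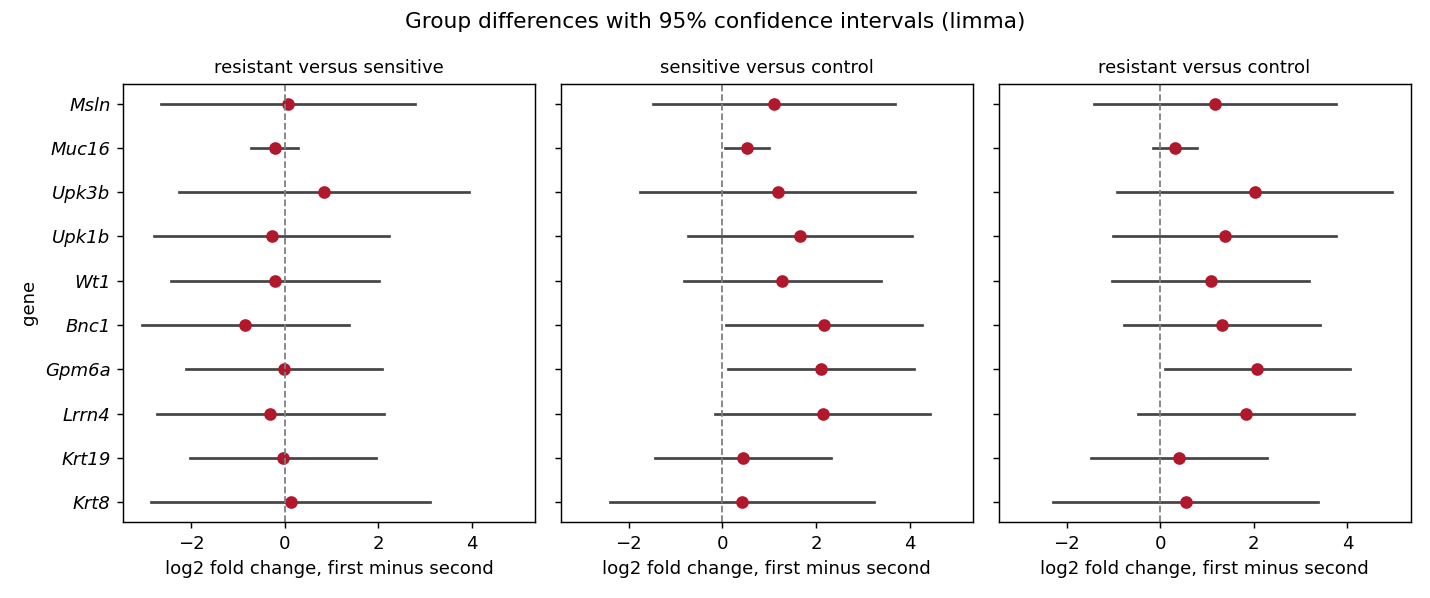
Log2 fold change (x axis, first group minus second) of each gene (y axis) in the 3 comparisons, with points for the limma estimate and lines for its 95% confidence interval. The intervals cross 0 for all genes between resistant and sensitive arrays, and they clear it for Muc16, Bnc1 and Gpm6a between sensitive and control and for Gpm6a between resistant and control, before any adjustment.

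With quantile normalization the order of group means was control lowest for each gene, and whether sensitive or resistant came highest differed between genes. The sensitive mean of Krt8 was below its control mean in the deposited values and with arrays centred on their medians (log2 fold changes of −0.026 and −0.14). After quantile normalization sensitive came highest for 7 genes and resistant for Msln, Upk3b and Krt8, but in the deposited values and with arrays centred on their medians the resistant mean was above the sensitive mean for 8 of 10. No neighbours in that order differed past the adjusted threshold.

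Several probe sets were present for 4 of the genes, Upk3b, Upk1b, Gpm6a and Krt8, 11 probe sets in all. Names ending in _x_at or _s_at, which include those used for these 4 genes and Wt1, mark probe sets whose probes may also match other transcripts, so these levels are less certain. In each gene the probe sets were high and low on the same arrays. The other probe set of Upk3b (1434237_at) was 7.14 and 6.89 on sensitive arrays 1 and 2, 6.16 and 5.96 on resistant arrays 2 and 3, with 2.33 to 4.68 elsewhere. The other probe set of Gpm6a (1426442_at) was dimmer, at 3.08 and 4.62 on sensitive arrays 1 and 2 and 4.47 and 3.67 on resistant arrays 2 and 3. All 11 had higher means on the sensitive than on the control arrays, and likewise on the resistant than on the control arrays. Between resistant and sensitive arrays 4 were positive and 7 negative, with opposite signs within Gpm6a (−0.02 and 0.14) and within Krt8 (0.13, −0.04 and −0.05).

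**Figure D3:**
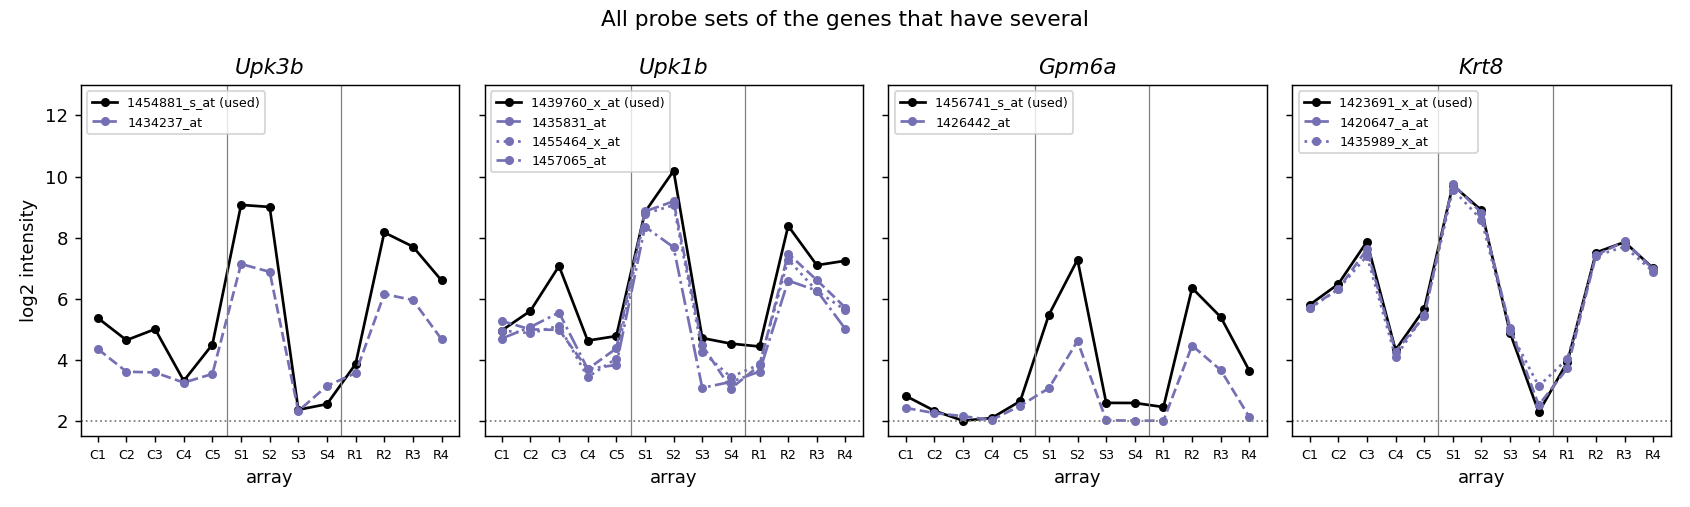
Log2 intensity (y axis) of every probe set of Upk3b, Upk1b, Gpm6a and Krt8 on the 13 arrays (x axis, C control, S sensitive, R resistant, with replicate number). Black lines are the probe sets used and purple lines the others, and vertical lines part the groups. Every probe set is highest on sensitive array 1 or 2 and comes up again on resistant arrays 2 and 3, with resistant array 4 above resistant array 3 for the used probe set of Upk1b.

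A wider list of 20 further genes of the lining was read in the same way. Of these, 19 had a probe set, and 18 were tested, since Tbx18 did not pass the filter. By limma 0 of the 18 were called in any of the 3 comparisons. Their median log2 fold change was −0.06 between resistant and sensitive arrays (7 of 18 positive), 0.36 between sensitive and control (13 of 18) and 0.29 between resistant and control (16 of 18). The median of the listed genes on sensitive arrays 1 and 2 was 7.41 and 7.03, on resistant arrays 2 and 3 it was 6.10 and 5.88, and on control array 3 it was 6.12. On the other arrays it lay between 3.34 and 5.44.

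Of the 18 genes 15 were highest on sensitive array 1 or 2, and 5 had the same 4 leading arrays as the mesothelial genes. Krt18, the filament partner of keratin 8, was 9.30 and 8.55 on sensitive arrays 1 and 2, 6.93 and 7.22 on resistant arrays 2 and 3, and between 3.23 and 6.38 elsewhere. Nkain4 had 7.69 and 7.03, then 6.98 and 6.30, on the same pairs of arrays, with 3.83 to 6.12 elsewhere. The retinoic acid enzyme gene Aldh1a2 had 7.91 and 8.82, then 8.22 and 6.80, with control array 5, at 6.97, above resistant array 3. Gata6, a transcription factor also used by peritoneal macrophages, had 7.53 and 6.73, then 5.89 and 6.0, with 2.67 to 5.06 elsewhere. Other listed genes followed the 10 less closely. Calb2, the gene of the mesothelial marker calretinin, lay between 2.76 and 3.95 and was highest on resistant array 4, with a correlation of 0.32 with the mean of the 10 genes over the 13 arrays. Podoplanin, Pdpn, had a correlation of 0.54.

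Slpi, a secreted protease inhibitor that other epithelia and myeloid cells make as well, went another way. Its log2 intensity was 9.75 to 10.98 on the 5 control arrays, 7.96 to 9.39 on the 4 sensitive arrays and 9.29 to 10.21 on the 4 resistant arrays. The sensitive and control groups did not overlap, with a log2 fold change of −1.81 (SE 0.35, limma adjusted p = 0.180). Between resistant and sensitive arrays the difference was 1.14 (SE 0.37, limma adjusted p = 0.533). Igfbp5, a binding protein of insulin-like growth factors, was 1.30 (SE 0.56, limma adjusted p = 0.386) higher on the log2 scale in the sensitive than in the control group.

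**Figure D4:**
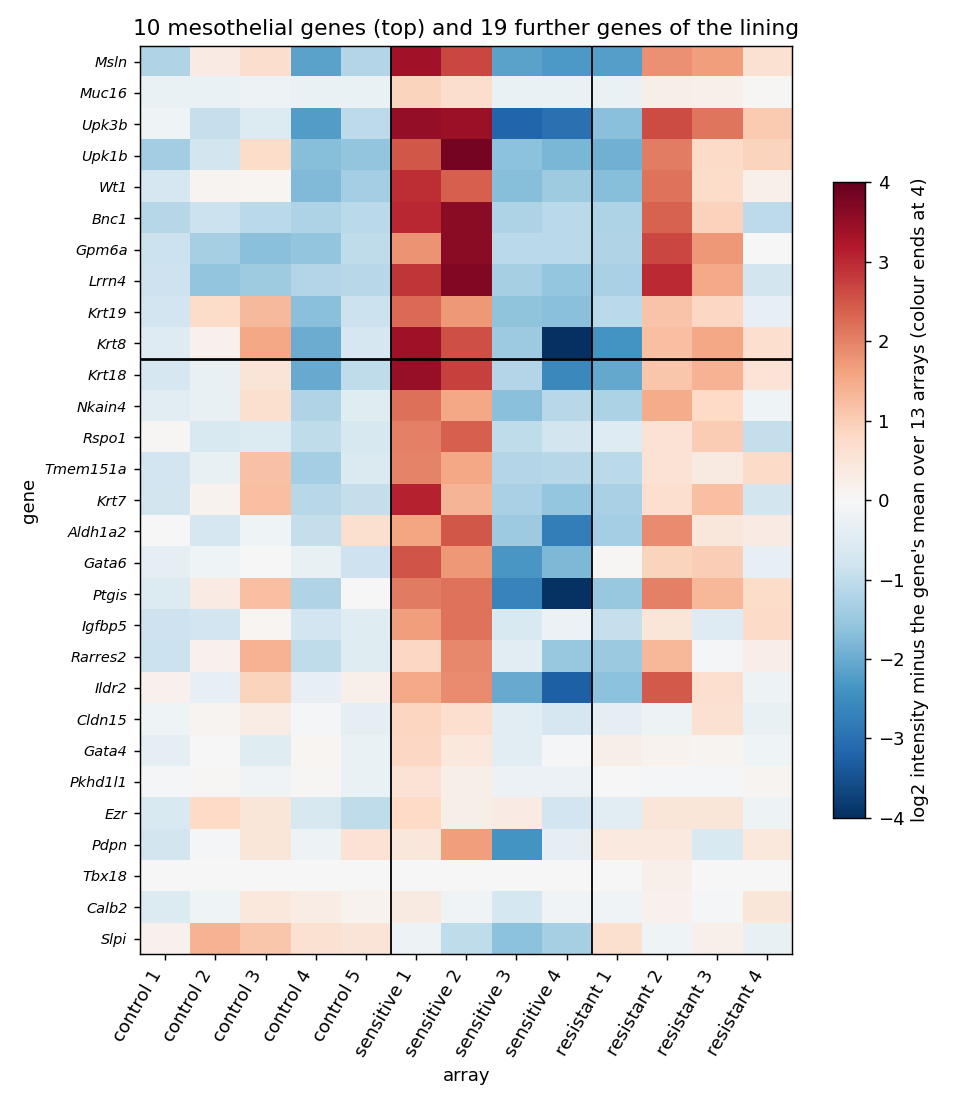
Log2 intensity of each gene minus its mean over the 13 arrays (colour, red above and blue below, ending at 4 log2 units) for the 10 mesothelial genes above the horizontal line and 19 further genes of the lining below it, by array (x axis). The further genes are ordered by their correlation with the 10 genes, from Krt18 at the top to Slpi at the bottom. Red columns stand at sensitive arrays 1 and 2 and resistant arrays 2 and 3.

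Among all tested genes outside the 10, those most like them over the 13 arrays were found by correlation with the mean of the 10 genes, each centred and divided by its SD. The 6 closest were Gsta4, a glutathione transferase (r = 0.978), Pard3, a cell polarity protein (r = 0.977), Tmem98 (r = 0.973), Flnc, filamin C (r = 0.972), Vat1l (r = 0.970) and Krt18 (r = 0.964). Their Spearman correlations were 0.967, 0.945, 0.973, 0.956, 0.885 and 0.973. These are descriptions over 13 arrays that share the same leading samples. Flnc, for one, was 8.11 and 8.08 on sensitive arrays 1 and 2, 7.97 and 6.13 on resistant arrays 2 and 3 and 3.65 to 5.68 on the other arrays. Tmem98 was 6.81 and 7.95, then 6.63 and 5.58, on those pairs, and 2.90 to 5.06 elsewhere.

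Genes of other cell types moved with the mesothelial genes on some arrays and not on others. The median of 10 macrophage genes was 4.07, 3.52 and 4.43 on the first 3 sensitive arrays, while it was 9.75 on the last of them and 7.73 to 9.66 in the control and resistant groups. Macrophage lysozyme, Lyz2, was 7.45 to 8.05 on sensitive arrays 1, 2 and 3 and 10.71 to 11.90 on the other 10 arrays. Sensitive arrays 1 and 2 thus had high mesothelial and low macrophage genes, sensitive array 3 had both low, and resistant arrays 2 and 3, at macrophage medians of 8.72 and 9.18, had both high. Sensitive array 3 also had a B cell median of 8.55, against at most 5.53 elsewhere. The peritoneal macrophage list was at 2.70 to 4.64 on the sensitive arrays, 4.70 to 7.14 on the controls and 6.68 to 7.33 on the resistant arrays.

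Stromal genes followed the mesothelial genes in part. The median of 10 fibroblast and stromal genes was 6.85 and 7.93 on sensitive arrays 1 and 2, 8.34 and 5.90 on resistant arrays 2 and 3 and 3.75 to 6.53 on the other arrays. Collagen Col1a1 ranged from 4.06 on sensitive array 4 to 9.64 on sensitive array 2. Of the epithelial genes, Epcam, the CD326 antigen by which the methods sorted tumor cells, was 6.52 and 6.77 on sensitive arrays 1 and 2, 5.13 and 4.10 on resistant arrays 2 and 3, 5.90 on resistant array 4 and 4.05 to 5.66 on the other arrays. The list of 8 epithelial genes was at 4.50 and 5.08 on sensitive arrays 1 and 2 by its median and at 3.11 to 4.78 elsewhere. The medians of 6 ovary and oviduct genes were low throughout, but they too were highest on sensitive arrays 1 and 2, at 3.50 and 3.13, with 2.29 to 2.86 elsewhere. The part of these cells, and of human tumor RNA on mouse probes, in the mesothelial values was not tested, and more cells of a type cannot be told apart from more RNA per cell.

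Array brightness moved with the genes as well. Before normalization the 2%-trimmed mean intensity was 19.4 on both sensitive arrays 1 and 2, 23.8 on control array 3, 24.7 on resistant array 4, 27.5 on resistant array 2 and 31.1 to 33.5 on the other arrays, resistant array 3 included. In the deposited values, without normalization, all 10 genes were still above every control array on sensitive arrays 1 and 2, but sensitive array 1 or 2 was highest for 8 of 10 rather than all, with Wt1 and Lrrn4 highest on resistant array 2. For 8 of 10 the 4 leading arrays were sensitive 1 and 2 and resistant 2 and 3.

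**Figure D5:**
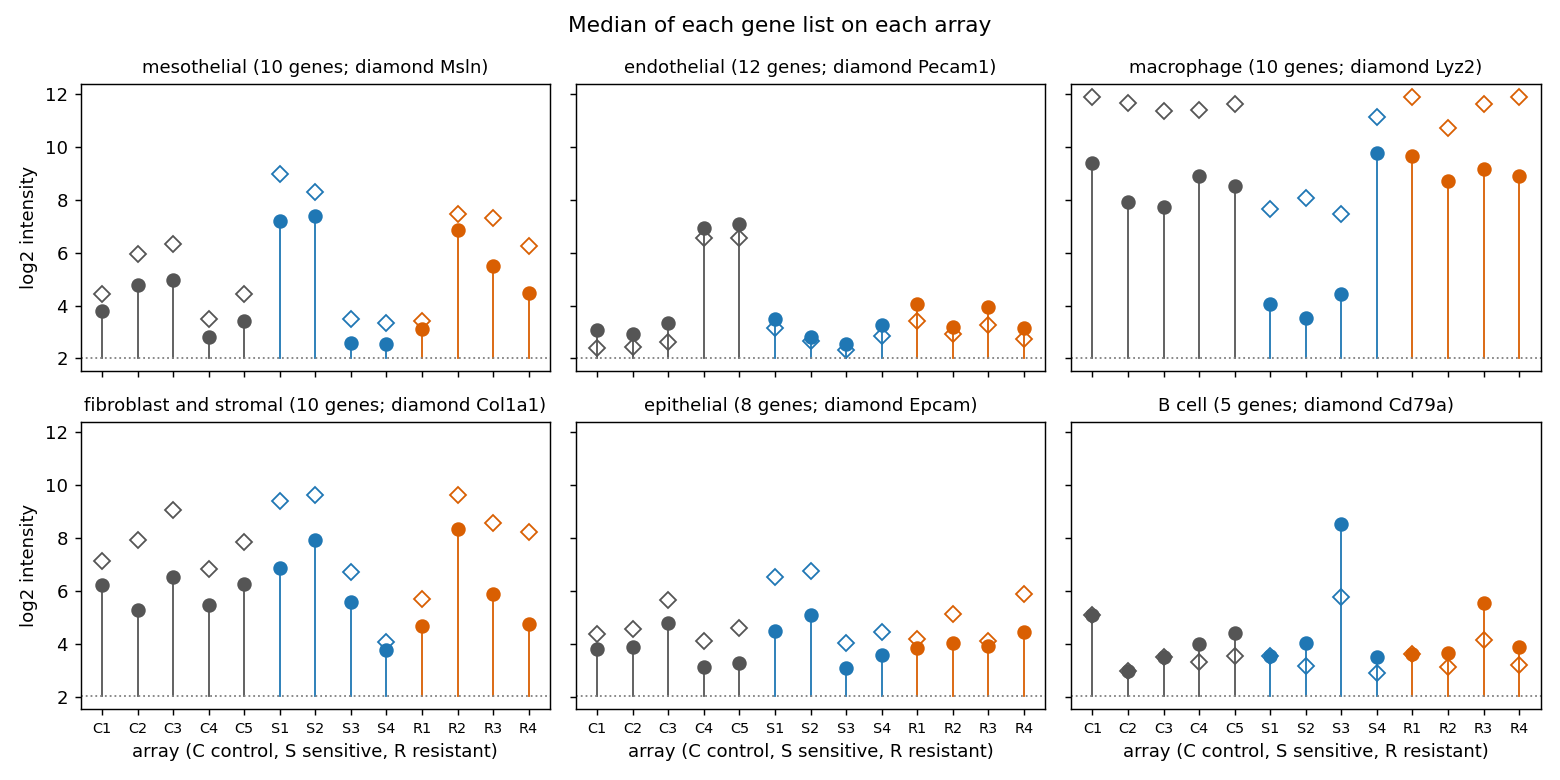
Median log2 intensity (y axis, filled circles) of the mesothelial, endothelial, macrophage, fibroblast and stromal, epithelial and B cell lists on the 13 arrays (x axis, C control, S sensitive, R resistant, with replicate number), with open diamonds for 1 gene of each list and the floor dotted. Mesothelial medians are highest on sensitive arrays 1 and 2 and resistant array 2, endothelial medians on control arrays 4 and 5, and macrophage medians are lowest on sensitive arrays 1, 2 and 3.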

How the data were processed

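The table deposited by the authors had 45101 Affymetrix probe sets for 13 arrays, with 0 missing values. Per the labels, biotin-labeled cRNA was processed with MAS5 (no version given), whereas the methods name Illumina bead chips and BRB-ArrayTools, with dim or absent spots excluded (under an intensity of 100). The deposited values were read as log2 intensities because of their range. No source states the logarithm's base or the full normalization, and a base of 2 underlies every fold change here. Groups were read from the sample titles, and the number of arrays limits the precision.

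Trimmed linear means differed by 1.73 times, over a limit of 1.5, so the arrays were quantile normalized. The 30th percentile of all values was the floor for lower ones, so changes of dim genes come out too small. Genes were named from the platform table, in which 34945 probe sets had 1 symbol, 932 several and 9211 were not listed; 64 control probe sets were left out. Genes above the floor on at least 4 arrays (15370; 2823 not) were tested in R 4.3.3 with limma 3.58.1 (lmFit, then eBayes with trend), all 3 groups in the fit and 10 residual degrees of freedom. Two-sided p-values were adjusted by Benjamini-Hochberg, with calls at an adjusted p under 0.05. The fit was tested on simulated data.

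The 10 genes and all lists were chosen with earlier results of these data known. Named genes were all 10 genes, at most 3 further lining genes with the smallest p per comparison, the 6 genes most correlated with the 10, the first gene of each cell type list and genes given as background. Nkain4, Aldh1a2, Gata6, Calb2, Pdpn, Kdr, Plvap and the values of Krt18 as a lining gene were picked after values were seen. Replicate numbers were not used to pair the arrays. Alternatives covered scaling, floor, filter, probe set rule, variance model, a plain two-sample version of the methods' t-test, the replicate block and left-out arrays.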

Additional observations from a re-analysis of the deposited data

Results flagged for a closer look

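Control array 3 stood apart from the other control arrays for Muc16, at 2.07 against the floor of 2.01 on the other 4, and it was the 1 flag among 33 sets of arrays examined, of which chance flags about 1 in 20. Because the other values were all set to the floor, the gap of 0.05 is the whole range of the group.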

How the results depend on the processing

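Of 29 alternatives, none called a mesothelial gene in any comparison, but with a floor at an intensity of 100 only 4 of the 10 were tested. Genes called over the whole array numbered 0 in each comparison, but 6, 12 and 1 (resistant versus sensitive, sensitive versus control, resistant versus control) with a floor at an intensity of 100. They numbered 34 between resistant and control with array weights, 2 between resistant and sensitive with the compared groups alone, 16 and 19 in the sensitive comparisons without sensitive arrays 1 and 2, and 1 and 4 without those and resistant arrays 2 and 3. With single arrays left out the count ran from 0 to 428 between resistant and sensitive (4 without control array 1, 428 without sensitive array 4, whose RNA looked degraded) and from 0 to 696 between sensitive and control (1 without control array 3, 696 without sensitive array 4). Centring on the medians moved the median of all genes by 0.11 between resistant and sensitive and by −0.14 between sensitive and control. The cause of these changes was not tested.

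The labels do not pair arrays by replicate number. Deviations of same-numbered arrays correlated at −0.43 to 0.53. Differently numbered arrays were not set beside them, so a pairing was neither shown nor excluded. The replicate block changed no call, with medians of −0.12, 1.15 and 1.14 in the same order of comparisons.

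The resistant versus sensitive median of −0.12 turned positive with deposited values (0.26), arrays centred on their medians (0.34), array weights (0.36), sensitive arrays 1 and 2 left out (1.98) and those and resistant arrays 2 and 3 left out (0.88), and ran from −0.85 to 0.69 with single arrays left out. The sensitive versus control median turned to −0.81 in both settings without sensitive arrays 1 and 2, and ran from 0.40 to 2.17 with single arrays left out. The resistant versus control median ran from 0.67 to 1.94 with single arrays left out. Sensitive arrays 1 and 2 and resistant arrays 2 and 3 were left out because these genes were high there. Shifts in those settings, here and below, follow from that choice.

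Single genes changed sign as follows, none of them called. Between resistant and sensitive, deposited values gave Upk1b 0.075, Wt1 0.19, Gpm6a 0.34, Lrrn4 0.15 and Krt19 0.32, and median centring gave 0.16, 0.27, 0.43, 0.24 and 0.41 for the same genes. The floor of 100 gave Msln −0.63, Upk3b −0.55 and Krt8 −0.72, and the mean of all probe sets gave Gpm6a 0.057. Array weights gave Wt1 0.13, Gpm6a 0.44, Lrrn4 0.28 and Krt19 0.47. Without sensitive arrays 1 and 2 the values were Muc16 0.32, Upk1b 2.17, Wt1 1.91, Bnc1 1.39, Gpm6a 1.87, Lrrn4 2.05 and Krt19 1.78, and without resistant arrays 2 and 3 as well they were 0.15, 1.22, 0.82, 0.0058, 0.46, 0.42 and 0.94. Without resistant arrays 2 and 3 alone Msln was −1.21, Upk3b −0.52 and Krt8 −0.98. With single arrays left out the ranges were −0.83 to 1.06 for Msln, −0.29 to 1.94 for Upk3b, −1.12 to 0.76 for Upk1b, −0.95 to 0.60 for Wt1, −1.61 to 0.00056 for Bnc1, −0.65 to 0.91 for Gpm6a, −1.13 to 0.62 for Lrrn4, −0.65 to 0.66 for Krt19 and −1.26 to 1.22 for Krt8.

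Between sensitive and control, Krt8 was −0.026 with deposited values, −0.14 with median centring and −0.27 without control arrays 4 and 5, where Krt19 was −0.25. Without sensitive arrays 1 and 2, with or without resistant arrays 2 and 3, the values were Msln −1.51, Muc16 −0.011, Upk3b −2.11, Upk1b −0.79, Wt1 −0.83, Bnc1 −0.074, Lrrn4 −0.22, Krt19 −1.38 and Krt8 −2.44. With single arrays left out Krt19 ran from −0.26 to 1.05 and Krt8 from −0.67 to 1.80. Between resistant and control, leaving out control arrays 4 and 5 gave Krt19 −0.28 and Krt8 −0.14, and leaving out resistant arrays 2 and 3, with or without sensitive arrays 1 and 2, gave Msln −0.11, Wt1 −0.019, Bnc1 −0.068, Krt19 −0.45 and Krt8 −0.56.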
